A study of Mus musculus with 24 samples.

Results

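Immediate early genes are induced within minutes of a signal without new protein synthesis, and 10 of them were followed here in hematopoietic stem and progenitor cells: Fos, Fosb, Jun, Junb, Jund, Egr1, Ier2, Atf3, Nr4a1 and Klf2. They were taken by symbol from the table of read counts, which holds 24091 genes, and all 10 were among the 13520 genes that passed the filter on low counts. Bulk RNA-seq was performed on bone marrow LSKs (Lin-Sca-1+c-Kit+ cells, the fraction that holds hematopoietic stem cells and multipotent progenitors) of 24 mice, to ask how loss of miR-142 changes normal and BCR-ABL-expressing LSKs. Each of 4 groups held 6 mice, 3 females and 3 males. WT mice were miR-142+/+ and miR-142 KO mice were miR-142-/-, both without BCR-ABL. CP CML mice were miR-142+/+ BCR-ABL and BC CML mice were miR-142-/- BCR-ABL, named for the chronic phase and the blast crisis of chronic myeloid leukemia. All mice were of the B6 background. In both CML groups the BCR-ABL oncogene was driven by the SCL promoter through a tetracycline-controlled transactivator, and LSKs were collected 2 weeks after tetracycline was withdrawn to switch it on. The labels give each library a number of its own, read here as 1 mouse, and give no age, litter, sort date or replicate number, so replicates were numbered within a group in the order of the records, females 1 to 3 and males 4 to 6. The study's methods give a smaller number of mice per group than the labels.

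Fos, Fosb, Jun, Junb and Jund encode subunits of AP-1, a dimeric transcription factor of the bZIP type, and Atf3 encodes a related bZIP factor of the stress response. Egr1 and Klf2 encode zinc finger factors, Nr4a1 an orphan nuclear receptor and Ier2 a small nuclear protein. In resting cells these genes are read little, and growth factor, cytokine, stress or mechanical signals that act through ERK, JNK, p38, SRF or CREB raise their transcripts quickly. The transcripts are short-lived, and feedback genes such as the phosphatase Dusp1 and the RNA-binding protein gene Zfp36 are induced with them. In stem cells, Egr1 and Nr4a1 have been tied to quiescence, and Klf2 is known for quiescence of T cells and for the endothelium. Jund is read more steadily than its relatives in most cells. The same genes are known to rise when tissue is dissociated and cells are sorted.

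Promoters of RefSeq transcripts (GRCm38.p6, the window from 250 bases before to 50 bases after the start) were read for 8 of the 10 members. They were searched on both strands for TGACG, the first letters of the cAMP response element bound by CREB and ATF factors, for the full element TGACGTCA, for the AP-1 site TGACTCA, for the EGR site GCGNGGGCG and for the CArG box of SRF. TGACG, which lies within the full cAMP response element, was present in 20.8% of 32841 promoters and in those of Fos, Fosb, Junb, Atf3, Nr4a1 and Klf2. The EGR site was present in 5.55% of all promoters and in those of Fosb, Nr4a1 and Klf2. No window of the 8 held the full element (1.79% of promoters), the AP-1 site (5.2%) or the CArG box (1.63%), which says only that those letters are not in these windows. The 4 windows below hold Fos, to which the other genes are compared, and the 3 members with both motifs. Capitals mark TGACG or its complement CGTCA and the EGR site, each window being written along its gene's own strand.
Fos promoter, chr12:85473640-85473939, plus strand: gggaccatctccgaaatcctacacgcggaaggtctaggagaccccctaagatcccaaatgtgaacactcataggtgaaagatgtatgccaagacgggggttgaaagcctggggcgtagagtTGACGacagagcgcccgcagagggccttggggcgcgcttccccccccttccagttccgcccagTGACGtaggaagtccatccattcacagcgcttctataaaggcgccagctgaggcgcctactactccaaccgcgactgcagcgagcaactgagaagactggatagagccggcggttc
Fosb promoter, chr7:19309996-19310295, minus strand: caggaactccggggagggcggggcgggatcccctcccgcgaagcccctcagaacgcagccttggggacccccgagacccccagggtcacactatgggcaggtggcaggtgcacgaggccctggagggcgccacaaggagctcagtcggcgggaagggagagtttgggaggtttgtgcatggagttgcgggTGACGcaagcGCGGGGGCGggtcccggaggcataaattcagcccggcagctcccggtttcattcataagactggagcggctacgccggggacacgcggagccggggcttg
Nr4a1 promoter, chr15:101266596-101266895, plus strand: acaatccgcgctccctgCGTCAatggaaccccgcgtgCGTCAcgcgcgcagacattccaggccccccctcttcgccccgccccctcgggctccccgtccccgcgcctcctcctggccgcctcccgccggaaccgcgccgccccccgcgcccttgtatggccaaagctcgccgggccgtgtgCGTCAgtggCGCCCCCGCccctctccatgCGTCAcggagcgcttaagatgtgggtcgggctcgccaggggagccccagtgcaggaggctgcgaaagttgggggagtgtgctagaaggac
Klf2 promoter, chr8:72318812-72319111, plus strand: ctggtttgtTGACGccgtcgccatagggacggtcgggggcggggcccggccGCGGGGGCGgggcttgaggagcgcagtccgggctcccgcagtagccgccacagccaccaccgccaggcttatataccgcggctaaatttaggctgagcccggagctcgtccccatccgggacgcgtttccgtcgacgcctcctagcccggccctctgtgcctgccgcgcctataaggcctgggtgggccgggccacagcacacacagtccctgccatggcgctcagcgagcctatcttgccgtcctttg
In Fos, TGACG began at positions -129 and -66 from the transcription start. In Fosb, TGACG at position -60 was followed by the EGR site at position -50. Nr4a1 held 4 copies, at positions -233, -213, -69 and -40, with the EGR site at position -60, all on the strand opposite to the gene. In Klf2 both motifs lay farther out, TGACG at position -241 and the EGR site at position -199.

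MiR-142, which the miR-142 KO and BC CML mice lack, gives a mature microRNA from each arm of its hairpin (RefSeq sequences, GRCm38.p6, chromosome 11, plus strand). They are printed because a direct target should hold the complement of a seed, bases 2 to 8, which is in capitals.
miR-142a-5p: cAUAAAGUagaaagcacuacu
miR-142a-3p: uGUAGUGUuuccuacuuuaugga
Fos 3' UTR site, capitals mark the match to the miR-142a-5p seed: aagataggACTTTATtttccagt
Over the 3' UTRs of the 10 members (GENCODE M21, GRCm38), the complement of the miR-142a-5p seed occurred once, at position 494 of the 815 bases of the Fos 3' UTR. It occurred in 15.8% of 12609 tested genes with a 3' UTR. The complement of the miR-142a-3p seed occurred in none of the 10 and in 6.92% of the tested genes. A match of letters is a description and does not show binding.

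Libraries held 16267965 to 24687077 counts, and values are given below as CPM, counts scaled by TMM to a common library size. Mir142 was at 0 counts in all 12 miR-142 KO and BC CML libraries and between 3.22 and 6.69 CPM in the 12 others, so the labels of the deletion held. Kit, Ly6a (Sca-1) and Cd34, which mark the sorted population, were detected in every library (Ly6a 30.7 to 155 CPM, Kit 662 to 1240 CPM). Of 7 B lineage markers, Pax5 (at most 0.903 CPM), Ms4a1, Vpreb1 and Cd79a stayed at or below 5.7 CPM, while Cd79b was 22.0 to 36.6 CPM and Jchain 0.432 to 909 CPM, so that their summed CPM was 63.74 to 943.5 in WT, 162.5 to 732.4 in CP CML, 26.32 to 37.34 in miR-142 KO and 27.85 to 38.5 in BC CML. The 7 T or NK cell markers summed to 56.96 to 140.6 CPM, of which Nkg7 held 46.9 to 118 CPM, and Cd3e was at most 4.07 CPM with 9 libraries at 0. The summed CPM of 6 mast cell or basophil markers reached 3439 to 7134 in BC CML libraries, 1323 to 2361 in CP CML libraries, 429 to 2975 in miR-142 KO libraries and 261 to 780.5 in WT libraries. In bulk RNA, a change in how many cells carry a transcript and a change in transcript per cell cannot be told apart.

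Per length, Fos was the most abundant member, with a mean over 24 libraries of 491 CPM per kb, which ranked 39 among the 13520 genes tested. It was followed by Jun (348 CPM per kb), Egr1 (311), Fosb (259), Junb (157) and Ier2 (130). Jund (69.5 CPM per kb), Nr4a1 (56.2) and Klf2 (22.3) were lower, and Atf3 was lowest at 8.81 CPM per kb, rank 7199. Together the 10 genes took 0.479% to 0.983% of the counts in CP CML libraries and 0.313% to 0.614% in BC CML libraries, with 0.147% to 0.93% in miR-142 KO and 0.144% to 0.665% in WT libraries. Counting error was small beside the differences between mice for 9 members, whose lowest count in any library was 141 (Klf2). Atf3 is the exception, with as few as 6 counts.

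Mice of one group differed widely in the members. In each of 4 libraries, WT replicates 1 and 4 and miR-142 KO replicates 4 and 5, all 10 members were among the lowest 2 values of their group. For 8 of the 10 members these 4 libraries were below all the other 20. Klf2 was 5.99 to 12.8 CPM in the 4 and 18.1 to 81.9 CPM in the 20, and Atf3 was 0.246 to 2.38 CPM against 3.52 to 63.5 CPM. Nr4a1 and Ier2 were the exceptions, with 6 and 3 of the 20 libraries below the highest of the 4. At the other end, miR-142 KO replicate 2 and BC CML replicate 5 were the highest of their groups for all 10 members, CP CML replicate 6 for 9 and WT replicate 5 for 7. The 4 low libraries were not shallow, at 22024473 to 24111549 counts, and include 1 female and 3 males. Within WT and within miR-142 KO they carry the lowest of the labels that are plain numbers. What the numbers stand for is not given. They are named for the members' own values, so no test was made without them as a set. Leaving out 1 library at a time and the range of the remaining mice are given instead.

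**Figure D1:**
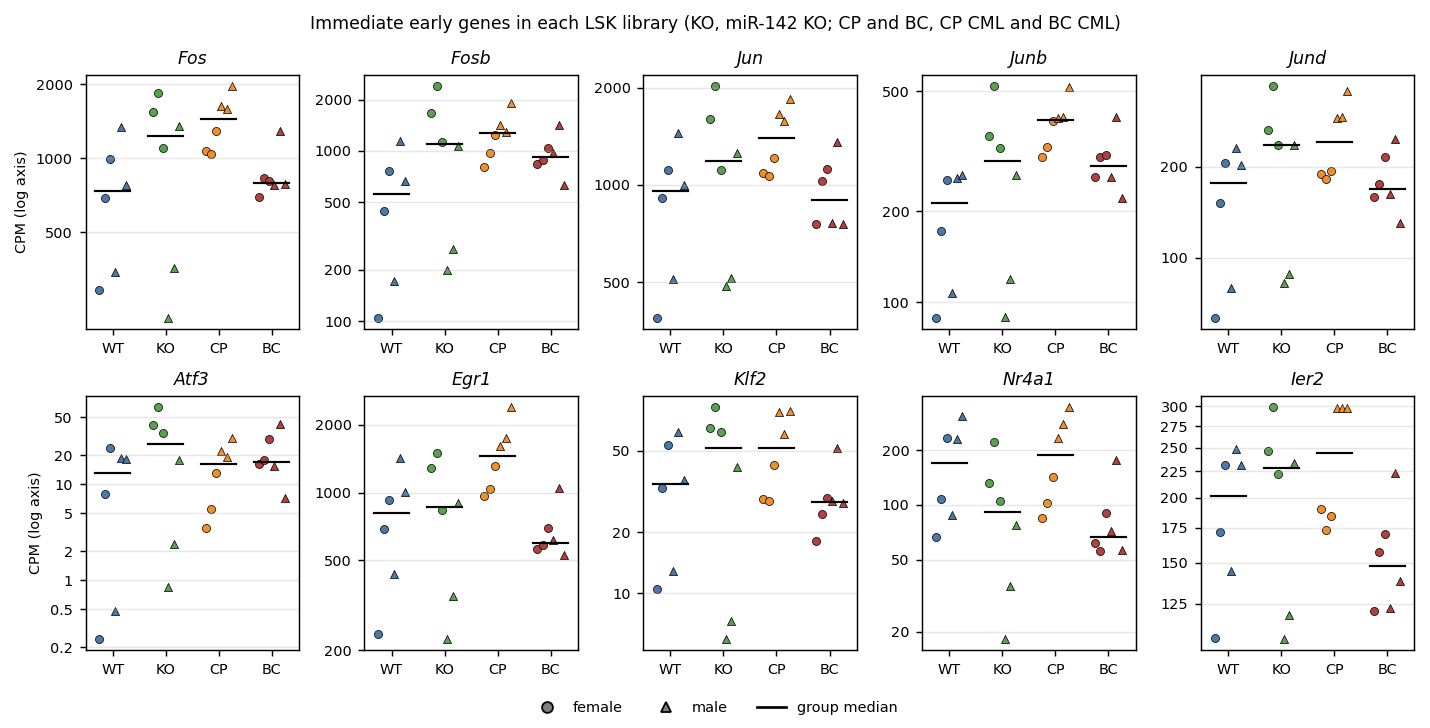
CPM of each member (log axis) in the 24 LSK libraries, circles for females and triangles for males, in replicate order within each group, with a line at the group median. WT replicates 1 and 4 and miR-142 KO replicates 4 and 5 form the low points of most panels, and the points of both CML groups lie closer together.

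Of the AP-1 genes, Fos encodes the classical dimer partner of Jun. Fos was 292 CPM at the lowest, 734 at the median and 1341 at the highest in WT, and 224, 1232 and 1848 CPM in miR-142 KO. It was 1039, 1441 and 1969 CPM in CP CML, and 694, 795 and 1294 CPM in BC CML. All groups overlapped. With the 4 low libraries set aside, the remaining WT mice spanned 688 to 1341 CPM and the remaining miR-142 KO mice 1104 to 1848 CPM.

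Fosb, the closest relative of Fos, varied more. Fosb was 105, 556 and 1135 CPM (lowest, median, highest) in WT and 200.6, 1095 and 2398 CPM in miR-142 KO LSKs. It was 628, 926 and 1421 CPM in BC CML and 800.3, 1267 and 1911 CPM in CP CML LSKs. In miR-142 KO the highest mouse had 12 times the value of the lowest, in BC CML 2.26 times.

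Jun, the partner that can also form homodimers, was 388, 957 and 1446 CPM in WT and 487, 1185 and 2024 CPM in miR-142 KO LSKs. It was 1062, 1394 and 1847 CPM in CP CML and 757, 896 and 1362 CPM in BC CML LSKs. Junb, an AP-1 gene that restrains myeloid expansion in mice, was 88.9, 214 and 265 CPM in WT, and its lowest CP CML value, 302 CPM, lay above all WT values. Junb reached 403 CPM at the median and 518 CPM at the highest in CP CML, and was 222, 282 and 411 CPM in BC CML and 89.3, 293 and 519.7 CPM in miR-142 KO. Jund was 182, 242 and 357 CPM in CP CML and 129.7, 169 and 246 CPM in BC CML, with 82.2, 236 and 369 CPM in miR-142 KO and 63.3, 177 and 229.8 CPM in WT. Jund overlapped in all pairs of groups.

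Egr1, a zinc finger factor induced through ERK and SRF, was 236, 808.5 and 1423 CPM in WT and 225, 866.5 and 1494 CPM in miR-142 KO. It was 964, 1458 and 2392 CPM in CP CML and 528, 601 and 1050.0 CPM in BC CML. The highest BC CML mouse was the only 1 of its group above the lowest CP CML mouse. Nr4a1, a nuclear receptor that acts without a known ligand, was 85.02, 187 and 345.5 CPM in CP CML and 55.9, 66.7 and 176 CPM in BC CML. It was 18.3, 91.6 and 222 CPM in miR-142 KO and 67.0, 170.1 and 309.9 CPM in WT. Ier2, whose product is a small nuclear protein, had the smallest range of the members over all libraries, 2.79 times from lowest to highest. Ier2 was 173.5, 244 and 299 CPM in CP CML and 121, 148 and 223 CPM in BC CML, with 107, 228 and 299 CPM in miR-142 KO and 107, 201.5 and 249 CPM in WT. The 3 highest CP CML libraries, all male, were within 1 CPM of each other.

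Klf2 was 10.6, 34.5 and 62.1 CPM in WT and 5.99, 51.6 and 81.9 CPM in miR-142 KO. It was 28.5, 51.5 and 78.3 CPM in CP CML and 18.1, 28.2 and 51.7 CPM in BC CML. Atf3 covered the widest range of the 10, 258 times between its lowest and its highest library. Atf3 was 0.85, 26.0 and 63.5 CPM in miR-142 KO and 0.246, 13.1 and 24.1 CPM in WT, the lowest values being those of the low libraries. It was 7.25, 17.1 and 42.0 CPM in BC CML and 3.52, 16.2 and 30.2 CPM in CP CML. The groups overlapped, and with the low libraries set aside the remaining miR-142 KO mice spanned 17.98 to 63.5 CPM and the remaining WT mice 7.93 to 24.1 CPM.

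By mean CPM, CP CML was the highest group for 9 members, and miR-142 KO for Atf3. WT was the lowest for Fos, Fosb, Jun, Junb, Jund and Atf3, and BC CML for Egr1, Klf2, Nr4a1 and Ier2. Not all neighbors in these orders were compared, since CP CML was not fitted against miR-142 KO, nor BC CML against WT. The comparisons that follow were fitted over all genes and all 24 libraries in edgeR (quasi-likelihood tests, Benjamini-Hochberg adjustment, threshold 0.05).

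BC CML against CP CML LSKs asks what miR-142 loss does in the presence of BCR-ABL. The zinc finger factor gene Egr1 was lower in BC CML, from 1508 ± 530 to 673 ± 193 CPM (SD, n = 6 each), a 2.24-fold fall (log2 fold change -1.16, SE 0.39, edgeR adjusted p = 0.0226). Ier2 fell 1.55-fold, from 240 ± 63.3 to 156 ± 38.4 CPM (log2 fold change -0.63, SE 0.24, edgeR adjusted p = 0.0434). The call of Ier2 was lost in 7 of 12 fits that each left out 1 mouse (edgeR adjusted p from 0.0599 to 0.0881) and without the filter on low counts (0.0504), and that of Egr1 in 1 of 12, without CP CML replicate 6 (0.0615). No other member passed, so 2 of 10 were called, both lower, where 38.0% of all genes tested were called. Nr4a1 had the most negative estimate, -1.21 on the log2 scale (SE 0.49), and missed the threshold in the quasi-likelihood test (edgeR adjusted p = 0.053). It was called lower by the likelihood ratio test of edgeR, by DESeq2, with upper quartile scaling and at 1 CPM in 6 libraries. With RLE scaling, without the filter on low counts or with sex as a covariate, Nr4a1 was not called. The log2 fold changes of 9 members were negative, with a median over the 10 of -0.59 beside 0.01 over all genes. Atf3 was the exception at 0.45 (SE 0.79). For no member did the 6 BC CML values lie apart from the 6 CP CML values, which 20.7% of genes did.

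The count depended on which libraries gave the spread. When the 12 CML libraries were fitted alone, 8 members were called lower in BC CML (Fos, Jun, Junb, Jund, Egr1, Klf2, Nr4a1 and Ier2), beside 43.3% of genes tested in that fit. In this fit the wide spread of the members in WT and miR-142 KO mice does not enter. An exact permutation test over all assignments of the same 12 libraries to 2 groups of 6, two-sided and unadjusted, gave p below 0.05 for 6 members, among them Fos (exact p = 0.00866) and Egr1 (exact p = 0.00649), where 49.8% of genes did so. Without CP CML replicate 6, the mouse with the highest value for 9 members, no member was called in the fit of all groups.

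CP CML against WT LSKs compares BCR-ABL with no BCR-ABL where miR-142 is present. Junb rose 2.06-fold, from 191 ± 79.6 to 394 ± 75.9 CPM (log2 fold change 1.04, SE 0.32, edgeR adjusted p = 0.0117), and its 6 CP CML values lay above the 6 WT values. It was the only member called, in a comparison in which 45.4% of genes were called, and the only 1 whose groups did not overlap, as 21.8% of genes did. All 10 estimates were positive, with a median of 0.67 beside -0.02 over all genes. Fosb (1.22, SE 0.50, edgeR adjusted p = 0.0517), Fos (0.95, SE 0.40, edgeR adjusted p = 0.0521) and Egr1 (0.94, SE 0.39, edgeR adjusted p = 0.0534) lay just outside the threshold. These 3 and Junb were called when only the 12 libraries of the comparison were fitted (46.2% of genes called). The exact permutation test gave p below 0.05 for 6 members, beside 51.8% of genes. As 1 mouse at a time was left out, 1 to 5 members were called. The highest count, 5 (Fos, Fosb, Jun, Junb and Egr1), came without WT replicate 5, the highest WT mouse for 7 members. The share of all genes called in that fit is not given here.

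MiR-142 KO against WT LSKs tests miR-142 loss without BCR-ABL. No member was called by edgeR at an adjusted p of 0.05, nor at an unadjusted p of 0.05, nor by DESeq2, beside 36.3% of all genes called. No member's groups stood apart (14.5% of genes), and the exact permutation test passed for none (39.7% of genes at p below 0.05). Fosb had an estimate of 1.04 on the log2 scale (SE 0.50, 95% confidence interval -0.0029 to 2.07, edgeR adjusted p = 0.111) and was called when WT replicate 5, miR-142 KO replicate 4 or miR-142 KO replicate 5 was left out. Fos, which holds the seed match, was at 0.54 (SE 0.39, interval -0.27 to 1.35). Nr4a1 was the 1 negative estimate, -0.82 (SE 0.48, edgeR adjusted p = 0.196). These intervals include 0 and do not show that the genes were alike in both groups.

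BC CML against miR-142 KO LSKs compares BCR-ABL with no BCR-ABL where miR-142 is absent. No member passed in edgeR, even at an unadjusted p of 0.05, or in DESeq2 (39.6% of genes were called by edgeR), none stood apart (10.6% of genes) and none had an exact permutation p below 0.05 (43.6% of genes). Estimates ran from -0.55 for Klf2 to 0.08 for Junb. The smallest adjusted p was that of Ier2 (log2 fold change -0.39, SE 0.24, edgeR adjusted p = 0.2). The difference between the leukemic and the normal effect of miR-142 loss was negative for all 10, from -1.44 for Fosb to -0.40 for Nr4a1, and passed for none of them, beside 3.99% of genes. Its smallest adjusted p was 0.202 (Egr1, edgeR, log2 difference -1.27, SE 0.55), and 5 members had an unadjusted p below 0.05. The share of all genes at that unadjusted threshold was not taken, and the 3.99% is not its counterpart. The members' response to miR-142 loss was therefore not shown to differ between normal and CML LSKs. The comparisons share their groups, so their directions are not independent of one another.

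**Figure D2:**
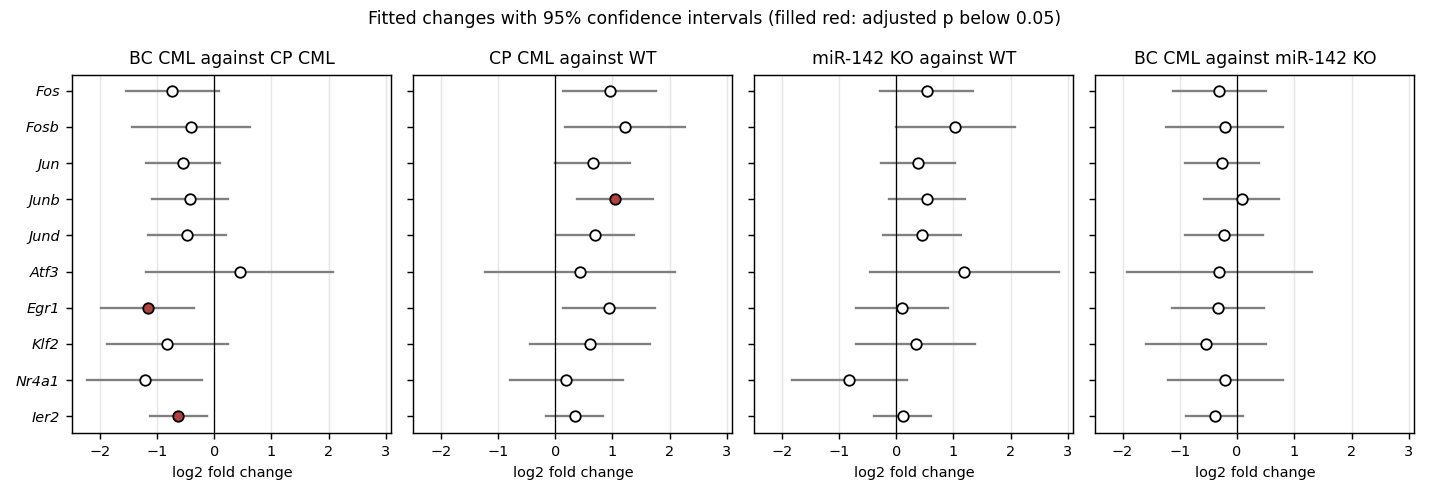
Log2 fold change of each member in 4 comparisons of LSK groups (6 mice each), with bars for the 95% confidence interval of the edgeR fit over 24 libraries and filled points for an adjusted p below 0.05. Egr1 and Ier2 are filled in BC CML against CP CML and Junb in CP CML against WT, and most other bars cross 0.

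Between mice of the same group the members moved together. After the group mean was subtracted from log2 CPM, Pearson's r with Fos over the 24 libraries was 0.974 for Klf2, 0.969 for Egr1, 0.968 for Fosb, 0.962 for Jun, 0.959 for Junb and 0.955 for Jund. It was 0.928 for Atf3, 0.926 for Ier2 and 0.897 for Nr4a1. Spearman's rho ran from 0.875 (Nr4a1) to 0.968 (Klf2). Both measures had a permutation p of 1e-05 for each of the 9 genes (100000 permutations within groups, two-sided), the smallest these permutations can give, and the adjusted p of r over 13519 genes was 0.00276. Over all genes 1.4% were related to Fos positively and 0.444% negatively at an adjusted p below 0.05, and the median r was 0.00. Klf2 ranked 3 among all genes by r, Egr1 4, Fosb 5, Jun 7, Junb 9, Jund 11, Atf3 17, Ier2 18 and Nr4a1 39. Over the 45 pairs of members, r ran from 0.897 (Fos with Nr4a1) to 0.981 (Jun with Jund).

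The relation was also read without 2 of the 4 low libraries, while WT replicates 1 and 4 stayed in. Without the 2 libraries farthest from the median of centred Fos, miR-142 KO replicates 4 and 5, r ranged from 0.828 to 0.961 and all 9 stayed past the threshold. Within the 6 CP CML mice, none of which is among the low libraries, r with Fos ran from 0.914 for Ier2 to 0.99 for Jun. In this group all 3 males lay above all 3 females for each of the 10 members, and r includes that difference. Within the 6 BC CML mice r ran from 0.664 for Atf3 to 0.934 for Klf2. These values over 6 mice are a description. The points share library size and scaling, which act on all genes alike.

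**Figure D3:**
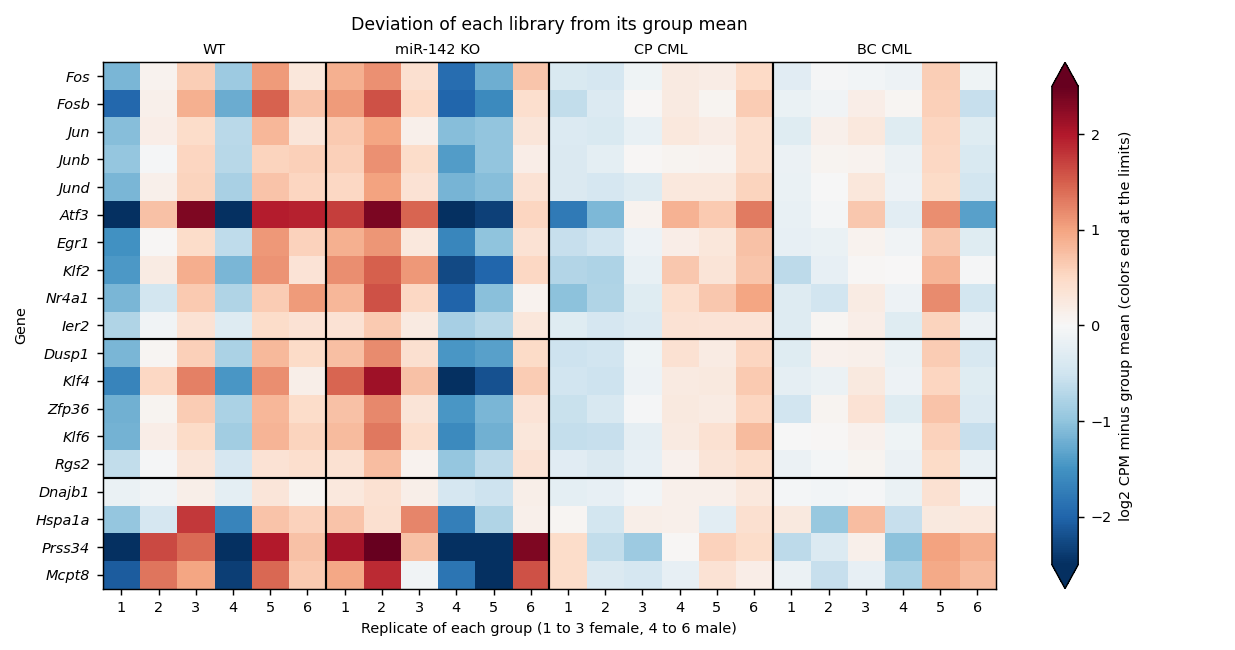
Deviation of log2 CPM from the group mean for the 10 members (top block), the 5 other named genes most like Fos (middle block) and 4 heat shock and basophil genes (bottom block), by library, red above and blue below the group mean. The same columns are blue or red across the top blocks, with the deepest blue in WT replicate 1 and miR-142 KO replicates 4 and 5.

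The members spread between mice more than most genes tested. The SD of log2 CPM within groups was 1.99 for Atf3, 1.07 for Klf2, 1.03 for Fosb, 0.95 for Nr4a1, 0.80 for Fos and 0.78 for Egr1, against a median of 0.16 over all genes. It was 0.65 for Jund, 0.63 for Junb, 0.61 for Jun and 0.46 for Ier2, which placed the 10 between percentiles 84.8 (Ier2) and 99.9 (Atf3) of the genes tested. The spread was larger in both normal groups than in both CML groups for all 10 members, a pattern shared by 30.1% of all genes and not tested. By group, the SD was 0.30 to 0.87 in BC CML, 0.28 to 1.21 in CP CML, 0.61 to 2.46 in miR-142 KO and 0.48 to 2.76 in WT.

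**Figure D4:**
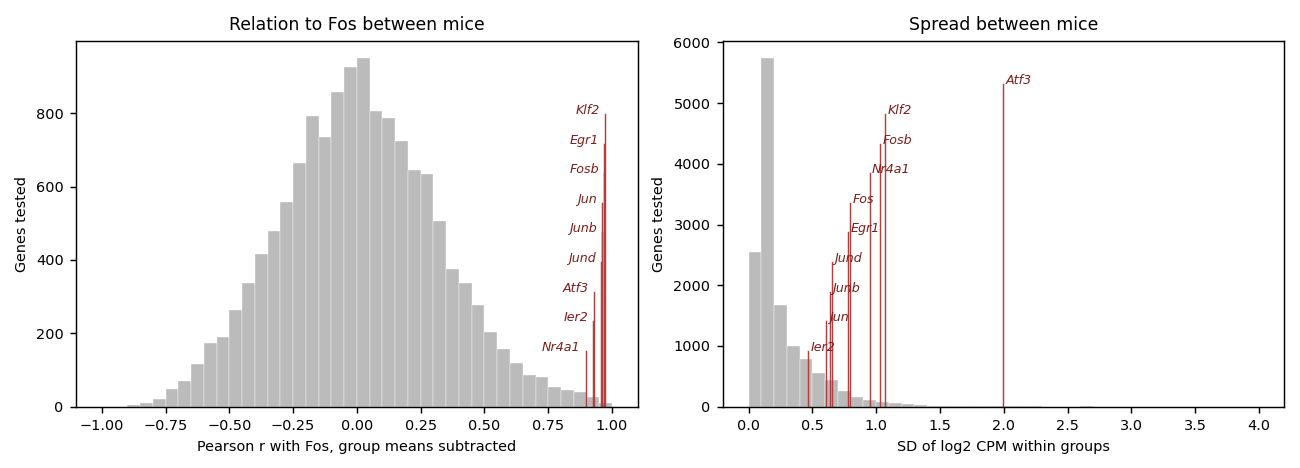
Left, Pearson r with Fos over 24 libraries after subtraction of group means for all genes tested (gray bars, number of genes), with red lines at the 9 other members. Right, SD of log2 CPM within groups for all genes, with red lines at the 10 members and 5 genes beyond the axis. The height of a red line has no meaning, and all members lie at the far right of the left panel and right of the peak of the right panel.

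The named genes most like Fos outside the list, by r over the 24 libraries, were Dusp1 (0.977), which encodes a phosphatase that turns off MAP kinases, Klf4 (0.976), a factor close to Klf2, Zfp36 (0.967), whose product destabilizes AU-rich transcripts, Klf6 (0.96) and Rgs2 (0.955), a regulator of G protein signaling. Dusp1 was 102 to 129.6 CPM in the 4 low libraries and 232 to 677 CPM in the other 20, and Klf4 3.74 to 7.11 CPM against 21.0 to 116 CPM. Rgs2 overlapped, at 102 to 140 CPM against 138 to 337 CPM. The genes were picked for their relation to Fos and the 4 libraries for low members, so low values there follow from the choice. The 5 most like Klf2 were Dusp1 (0.975), Klf4 (0.967), Zfp36 (0.962), Spry1 (0.959), an inhibitor of receptor tyrosine kinase signaling, and Klf6 (0.953).

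No member was called between males and females across groups (edgeR, 0.651% of genes called, smallest adjusted p 0.763, and none at an unadjusted p below 0.05), nor by DESeq2. Within groups the order turned. Label numbers of the males all lie below those of the females in CP CML and in miR-142 KO. Sex and label number cannot be told apart there. In CP CML all 3 males were above all 3 females for each of the 10 members, as they were for 11.5% of all genes tested, for example Fos at 1039 to 1293 CPM in females and 1590.0 to 1969 CPM in males, and Klf2 at 28.5 to 42.5 and 60.6 to 78.3 CPM. In miR-142 KO the estimate was lower in males for all 10, replicates 4 and 5 being 2 of the 3 males, and all 3 males were below all 3 females for 5 members (8.85% of genes), with adjusted p from 0.0876 (Junb, edgeR, log2 difference -1.35, SE 0.39) to 0.268. These estimates come from a fit of group by sex, chosen after the data were seen, in which no member passed in any group and in which 1.15% of all genes were called in miR-142 KO, 0.0814% in WT, 0.0592% in BC CML and 0.0962% in CP CML. At an unadjusted p below 0.05 were all 10 members in miR-142 KO (15.0% of genes), 2 in CP CML (12.4%) and none in WT (6.07%) or BC CML (1.9%). The difference between sexes passed for no member in any of the 4 comparisons, which called 0 or 1 of the 13520 genes. Unadjusted, it was below 0.05 for 9 members in miR-142 KO against WT (7.72% of genes), for 5 in BC CML against miR-142 KO (6.38%) and for none in the other comparisons (3.82% in BC CML against CP CML and 4.04% in CP CML against WT).

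Other genes of the pathway were read from lists. Of 13 other immediate early transcription factors tested, 8 were related to Fos positively and none negatively, with a median r of 0.82, among them Egr3 (0.936), Nr4a2 (0.905) and Egr2 (0.888). Of 24 immediate early effectors, 16 were related to Fos, with a median r of 0.88, among them Plk3 (0.947), Ptgs2 (0.936), which encodes cyclooxygenase-2, and Rhob (0.924). Of 13 feedback phosphatases and corepressors, 6 were related, all phosphatases of the Dusp family (Dusp1, Dusp2, Dusp5 and Dusp6) or Sprouty genes (Spry1 and Spry2). Of 12 other AP-1 and bZIP partners 3 were (Fosl1, Maff and Mafk). None of 22 kinases and factors that induce these genes was related to Fos by transcript, with a median r of 0.02, and 1 of 7 genes linked to KLF2 and KLF4 was, the integrin gene Itgb7 (0.807).

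Between groups the share of a list that was called lay below that of all genes in 21 of 28 pairs of a list and a comparison. In BC CML against CP CML, 6 of the 13 feedback genes fell and 1 rose, where 38.0% of all genes were called. The median of these 13 was -0.44 beside 0.01 over all genes. Among them Dusp6, which encodes an ERK phosphatase, fell from 86.2 ± 17.2 to 49.5 ± 7.21 CPM (log2 fold change -0.80, SE 0.17, edgeR adjusted p = 9.0e-04), and Nab1, a corepressor of EGR factors, rose from 90.6 ± 6.47 to 126 ± 6.79 CPM (0.48, SE 0.06, edgeR adjusted p = 7.6e-07). None of the 13 other immediate early transcription factors passed there, and 2 effectors rose and 2 fell, among the latter Zfp36l2 (-0.51, SE 0.07, edgeR adjusted p = 1.15e-05). In CP CML against WT 45.4% of all genes were called. Of the 13 factors 4 rose there and none fell (median 0.55 beside -0.02 over all genes), among them Srf (0.46, SE 0.06, edgeR adjusted p = 3.64e-06) and Bhlhe40 (1.81, SE 0.38, edgeR adjusted p = 5.49e-04). In the same comparison 6 of 24 effectors rose and 1 fell (median 0.36), with Socs3, the cytokine signaling inhibitor, up from 28.7 ± 13.1 to 139 ± 36.4 CPM (2.28, SE 0.39, edgeR adjusted p = 7.96e-05). Fosl2 and Batf, the AP-1 genes outside the members with the smallest adjusted p there, rose by 0.98 (SE 0.15) and 0.67 (SE 0.10) on the log2 scale (edgeR adjusted p 3.34e-05 and 2.37e-05).

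The share of all genes called was 36.3% in miR-142 KO against WT and 39.6% in BC CML against miR-142 KO. It was 38.0% in BC CML against CP CML. In miR-142 KO against WT, 3 feedback genes fell and 1 rose, with Dusp4, an ERK phosphatase gene, from 6.35 ± 1.74 to 1.38 ± 0.61 CPM (-2.20, SE 0.27, edgeR adjusted p = 1.35e-06). In BC CML against miR-142 KO, Dusp4 rose by 1.85 (SE 0.27, edgeR adjusted p = 2.49e-05) on the log2 scale, within a list in which 3 rose and 2 fell. Of the 22 inducing kinases and factors, 2 rose and 5 fell in BC CML against CP CML and 4 rose and 4 fell in miR-142 KO against WT, with all medians within 0.1 of 0 on the log2 scale. Of the 7 genes linked to KLF2 and KLF4, 3 rose and 2 fell in BC CML against CP CML. The sphingosine phosphate receptor gene S1pr1, which KLF2 activates in T cells, was 19.0 ± 2.55 CPM in WT, 12.03 ± 2.15 CPM in CP CML, 10.6 ± 1.36 CPM in miR-142 KO and 7.88 ± 1.45 CPM in BC CML LSKs. It fell in all 4 comparisons, by 0.61 (SE 0.13) on the log2 scale in BC CML against CP CML (edgeR adjusted p = 6.45e-04). Klf2 itself passed in none of them in the fit of all 24 libraries. Its estimate in BC CML against CP CML was -0.82 (SE 0.51), and it was called there when only the 12 CML libraries were fitted. Thbd, which encodes thrombomodulin and is another gene KLF2 activates in endothelium, rose from 11.4 ± 0.73 to 25.8 ± 2.82 CPM in BC CML against CP CML (1.17, SE 0.13, edgeR adjusted p = 2.48e-07).

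Transcripts of handling and of other cells that moved with the members between mice are given beside them. Among the 14 heat shock and handling genes, those related to Fos included Dnajb1 (r = 0.917), Hspa1a (0.761) and Dnajb4 (0.742), and the median r of the list was 0.09. Hspa1a, the inducible HSP70 gene, stayed at or below 3.48 CPM in all libraries, and Dnajb1 was 85.9 to 113 CPM in the 4 low libraries and 99.1 to 159 CPM in the others. Between groups, 5 of the 14 were called in BC CML against CP CML, all higher (38.0% of all genes called, median log2 fold change 0.27). In CP CML against WT 6 were called higher and 1 lower (45.4% of genes, median 0.15), in BC CML against miR-142 KO 9 higher and 1 lower (39.6%, median 0.33), and in miR-142 KO against WT 1 higher (36.3%, median 0.12). Their part in the members' levels was not tested.

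Of the 9 marker lists, the 9 LSK and stem cell markers held no gene related to Fos at an adjusted p below 0.05. Their median r was -0.298. Kit, which marks the sorted population, had the most negative r, -0.694, and did not pass (permutation, adjusted p = 0.0755). Its r was below 0 within every group of mice, which held for no other marker of this list. For Mecom, Hlf, Meis1 and Procr, r was negative in both normal groups and positive in both CML groups. Over the 24 libraries Ly6a (0.27) and Flt3 (0.046) had a positive r, also without passing. Of 6 mast cell or basophil markers, the proteases Prss34 (0.918) and Mcpt8 (0.87) were related to Fos, and Fcer1a, the receptor chain, had r = 0.792 without passing (permutation, adjusted p = 0.0753). Prss34 was 5.71 to 12.2 CPM in the 4 low libraries and 51.0 to 1132 CPM in the other 20, and Mcpt8 11.4 to 51.2 CPM against 85.1 to 657 CPM. This follows in part from their relation to Fos, since the 4 libraries were named for low members. Within groups of 6 mice the relation was uneven. For Prss34, r with Fos was 0.959 in miR-142 KO, 0.932 in WT, 0.648 in BC CML and 0.456 in CP CML. For Mcpt8 it was 0.93, 0.927, 0.599 and 0.172 in the same order, and for Fcer1a 0.972, 0.828, 0.112 and -0.56. These values are a description. Mcpt8, Prss34 and Fcer1a were above 0 in every library. The T or NK gene Klrb1c (0.837) and the myeloid integrin gene Itgax (0.773) were the other markers related to Fos, and no marker with a negative r passed the threshold. The neutrophil, B lineage, erythroid, megakaryocyte and endothelial or stromal lists held none. Whether cells of these types take part in the members' levels was not tested.

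**Figure D5:**
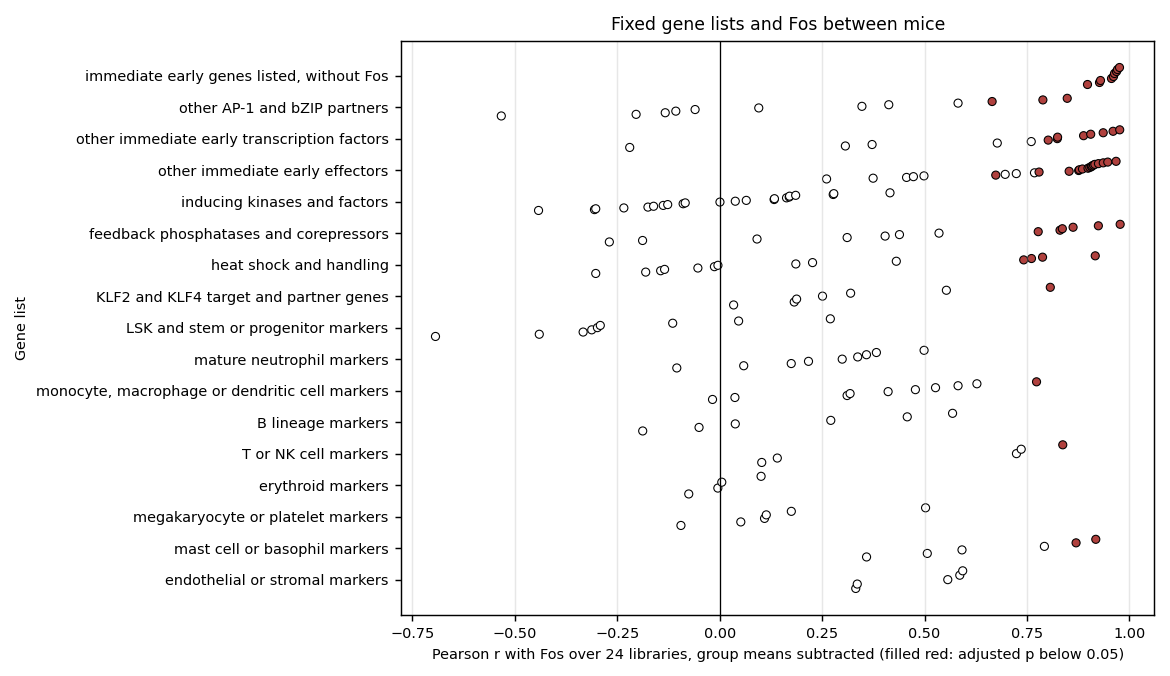
Pearson r with Fos over 24 libraries, group means subtracted, for each tested gene of each fixed list (1 point per gene, sorted within a row), filled red where the adjusted p was below 0.05. The listed members and the other immediate early rows hold most red points at the right, and the kinase and LSK marker rows hold none.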

How the data were processed

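Total RNA was extracted from LSKs sorted from 24 mice. Libraries were made with an mRNA kit (Kapa mRNA HyperPrep) and sequenced in 2 × 101 base reads. The deposited values are raw read counts per gene. The authors trimmed adapters with Trimmomatic and polyA tails with FASTP, mapped to mm10 with STAR 2.6.0 and counted with HTSeq 0.11.1. The annotation and the strand setting are not given in the sources used here, so reads of overlapping genes cannot be told apart. All 24 columns of counts were matched to 1 mouse each. Counts were filtered with filterByExpr (13520 of 24091 genes), scaled by TMM and fitted in edgeR 4.0.16 (R 4.3.3) with 1 mean per group over all libraries, with quasi-likelihood tests and Benjamini-Hochberg adjustment. Alternatives included DESeq2 1.42.0. Relations between mice used log2 CPM with a prior count of 2. P-values measure the spread between these libraries. Scripts were tested on simulated data. Named genes were the 10 members, those with the smallest adjusted p in each list at a mean of at least 1 CPM (up to 3 per comparison), and the 5 most like Fos and Klf2. The members and lists were chosen with earlier results of these data known. A related gene of the heat shock and handling list is not reported here.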

Additional observations from a re-analysis of the deposited data

Results flagged for a closer look

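In the BC CML group, replicate 5 stood apart from the other 5 mice for 4 members, by Dixon's 95% criterion applied to the highest and lowest library of each of 40 member and group combinations. It held Fos at 1294 CPM where the next mouse had 828 CPM, Egr1 at 1050.0 CPM where the next had 695 CPM, Klf2 at 51.7 CPM where the next had 29.2 CPM and Nr4a1 at 176 CPM where the next had 90.0 CPM. It was also the highest of its group for the other 6 members. About 1 group in 20 is marked in this way by chance, and the members move together between mice, so the 4 marks are not independent. Without this library 3 members were called in BC CML against CP CML.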

How the results depend on the processing

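Between 0 (without CP CML replicate 6) and 3 members were called in BC CML against CP CML as 1 mouse at a time was left out, 1 to 5 in CP CML against WT, 0 to 1 in miR-142 KO against WT and 0 in the other comparisons. In BC CML against CP CML, 1 member was called without the filter on low counts or with a log2 fold change of at least 1, and 8 with only the 12 libraries compared, where the spread comes from fewer groups. Egr1, Nr4a1 and Ier2, 3 members, were called there by the likelihood ratio test of edgeR and by DESeq2. The same 3 were called with upper quartile scaling and at 1 CPM in 6 libraries. In CP CML against WT, 4 were called by the likelihood ratio test of edgeR, by DESeq2, at 1 CPM in 6 libraries or with only the 12 libraries. In the last of these 46.2% of genes were called. The other settings left counts within 1.5 times, those of the relation to Fos included, of which 8 of 9 passed, without Nr4a1, when sex means were also subtracted. Directions turned only for estimates that passed no test. As 1 mouse at a time was left out, the log2 fold change in miR-142 KO against WT ran from -0.12 to 0.37 for Egr1 and from -0.022 to 0.24 for Ier2, and in CP CML against WT from -0.025 to 0.44 for Nr4a1. In BC CML against miR-142 KO it ran from -0.44 to 0.15 for Fosb, -0.11 to 0.35 for Junb, -0.62 to 0.16 for Atf3 and -0.56 to 0.21 for Nr4a1. There the difference of mean log2 CPM, the measure of the exact permutation test, was 0.015 for Fos, 0.23 for Fosb, 0.59 for Atf3 and 0.083 for Nr4a1, against negative fitted values. The cause was not tested. No paired analysis was possible because the labels give no replicate numbers shared between groups. A count of 0 allows up to 3 counts, counting error only.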
